A study of Mus musculus with 80 samples.

Results

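AMP-activated protein kinase (AMPK), the liver's sensor of falling energy charge, and LKB1, the kinase that switches it on, were followed through their mRNA in fed and fasting mouse livers. The 7 genes are the catalytic subunits Prkaa1 (alpha 1) and Prkaa2 (alpha 2), the scaffold subunits Prkab1 (beta 1) and Prkab2 (beta 2), the nucleotide-binding subunits Prkag1 (gamma 1) and Prkag2 (gamma 2), and Stk11, which encodes LKB1. They were taken by gene symbol from a table of 78275 genes, and all 7 were among the 21187 genes with enough counts to test. Of the catalytic subunits, Prkaa2 mRNA fell during fasting. Its mean over CT12 to CT44 was 102 ± 18.6 CPM in control and 86.7 ± 13.2 CPM in fasted livers (SD, n = 36 each). The fall of Prkaa1 mRNA was smaller and did not pass in every alternative run. CPM is a gene's count divided by the scaled size of its library in units of 1e6 counts. Stk11 mRNA rose slightly, from 74.6 ± 4.34 to 78.9 ± 4.15 CPM (SD, n = 36 each).

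AMPK works as a trimer of 1 catalytic alpha, 1 beta and 1 gamma subunit. When ATP is used faster than it is made, AMP and ADP bind the gamma subunit, and LKB1, acting with the pseudokinase STRAD and the scaffold MO25, phosphorylates the activation loop of the alpha subunit. Active AMPK phosphorylates enzymes of fatty acid, sterol and glycogen synthesis and factors of autophagy and gluconeogenesis, and it also phosphorylates the clock repressor CRY1, which ties it to the circadian clock. The beta subunits carry a glycogen-binding domain. The liver uses both alpha subunits, while the third gamma subunit, Prkag3, belongs to skeletal muscle. RNA was measured here, and neither phosphorylation nor protein was.

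The 80 libraries came from livers of male and female C57BL/6J mice that were 8 to 12 weeks old when bought, kept in constant darkness on the day of sampling, and taken every 4 h from circadian time (CT) 8 to CT44. Control mice ate ad libitum throughout. Fasted mice lost their food at CT10, so that their livers had been without food for 2 h at CT12 and 34 h at CT44, while those at CT8 had been fed like the controls. Each treatment and time had 2 males and 2 females, each library being the liver of 1 mouse. No allele, transgene or drug distinguished the groups. Treatment, time and sex were read from the sample titles, because the detailed labels gave another sex for 40 libraries and another treatment for 40. The sex markers went with the title in all 80.

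Total counts per library lay between 25534901 and 59927771, with a median of 42303883. In 3 libraries the profile stood apart from its group, with root-mean-square log2 distances of 0.80 for fasted CT40 female 2, 0.53 for fasted CT44 female 1 and 0.51 for control CT8 female 2, against a median of 0.27. The last of these held 31.3% of its counts in ribosomal RNA. The tests of genes and subunit ratios were therefore also run without those 3 libraries, a choice made after seeing the data. The hepatocyte markers were strongly expressed, at 60003 to 114786 CPM summed over 6 markers in control and 74459 to 133511 CPM in fasted livers at CT12 to CT44, and 4 of the 6 were higher and 1 lower in the mean fasting test. All 5 Kupffer cell markers were lower, with sums of 182 to 541 CPM in control and 118 to 390 CPM in fasted livers. Of the other lists, 3 of 5 stellate cell markers were lower and 1 higher (sums of 178 to 334 CPM in control and 160 to 336 CPM in fasted livers), 2 of 5 sinusoidal endothelial markers were lower and 2 higher (215 to 316 and 216 to 347 CPM), 3 of 4 cholangiocyte markers were lower (5.53 to 20.1 and 3.05 to 18.1 CPM) and 2 of 4 lymphocyte markers were lower (0.712 to 5.35 and 0.327 to 6.8 CPM). Skeletal muscle and adipocyte markers summed to under 1 CPM in every liver of those times, with none called, and exocrine pancreas markers to at most 6.55 CPM, with 1 of 4 lower. In bulk liver, fewer cells of a type and less RNA per cell cannot be told apart, and the part of these lists in the results below was not tested.

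The promoters of the catalytic subunits are shown because their mRNAs had close fitted peaks in the control livers. The Prkaa1 rhythm did not pass in every alternative run. The promoter of Stk11 is shown because its mRNA rose under fasting. Prkag1 mRNA also rose, and its window, not shown, held 1 GC box and 1 CCAAT box. Each run gives the 250 bases before the RefSeq start on the gene's own strand, in GRCm38.p6, with GC boxes (GGGCGG) and CCAAT boxes (CCAAT) on either strand in capitals. The windows lie at chr15:5143611-5143860 (+) for Prkaa1, chr4:105109899-105110148 (-) for Prkaa2 and chr10:80115545-80115794 (+) for Stk11.
Prkaa1: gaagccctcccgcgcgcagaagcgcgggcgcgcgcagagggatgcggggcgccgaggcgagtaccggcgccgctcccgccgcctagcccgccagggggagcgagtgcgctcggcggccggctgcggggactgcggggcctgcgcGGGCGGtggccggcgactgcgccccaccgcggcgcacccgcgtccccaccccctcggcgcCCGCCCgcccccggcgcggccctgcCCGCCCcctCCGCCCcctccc
Prkaa2: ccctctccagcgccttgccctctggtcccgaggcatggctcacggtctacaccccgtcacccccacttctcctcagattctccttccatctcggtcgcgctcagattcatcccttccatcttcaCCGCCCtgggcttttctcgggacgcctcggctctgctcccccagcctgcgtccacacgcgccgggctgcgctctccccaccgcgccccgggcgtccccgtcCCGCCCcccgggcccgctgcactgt
Stk11: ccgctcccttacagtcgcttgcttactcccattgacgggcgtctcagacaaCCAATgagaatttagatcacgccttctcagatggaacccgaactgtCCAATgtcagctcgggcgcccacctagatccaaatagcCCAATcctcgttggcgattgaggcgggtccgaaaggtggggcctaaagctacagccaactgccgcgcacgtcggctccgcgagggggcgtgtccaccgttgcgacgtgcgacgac

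The Prkaa1 window was 85.2% G and C with 4 GC boxes, and the Prkaa2 window 70.0% with 2. The Stk11 window was 59.6% with 3 CCAAT boxes and no GC box. The median over all 32851 promoter windows was 52.4%. All 7 genes matched an entry, with 9 starts in all since Prkag2 had 3, and 6 of the 9 windows held a GC box and 4 a CCAAT box, against 32.7% and 33.8% of all windows. None of the 9 windows held an E-box (CACGTG), a D-box (TTANGTAA), a ROR element (TAGGTCA), a CRE (TGACGTCA) or the FOXO site GTAAACA, which were in 6.02%, 2.06%, 2.23%, 1.55% and 3.17% of all windows. Both strands were searched, and the absence of these letters covers these windows alone.

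In GENCODE M21 on GRCm38, Prkaa1 (ENSMUSG00000050697) spans chr15:5143861-5181899, Prkaa2 (ENSMUSG00000028518) chr4:105029874-105109890, Prkab1 (ENSMUSG00000029513) chr5:116013586-116024508 and Prkab2 (ENSMUSG00000038205) chr3:97658193-97673812. Prkag1 (ENSMUSG00000067713) spans chr15:98812797-98831521, Prkag2 (ENSMUSG00000028944) chr5:24862744-25100642 and Stk11 (ENSMUSG00000003068) chr10:80115803-80130682. All are protein-coding. Every member but Prkaa2 overlaps a gene on the other strand, and whether the counting used strand is not given in the sources used here. Per kilobase of exon, the order in the control livers at CT12 to CT44 was Stk11 at 16.3 ± 0.947, Prkaa2 at 12.9 ± 2.33, Prkag1 at 12.1 ± 0.867, Prkab1 at 9.01 ± 1.33, Prkag2 at 5.45 ± 0.837, Prkaa1 at 3.4 ± 0.301 and Prkab2 at 0.730 ± 0.139 CPM per kb (SD, n = 36). Prkaa2 and Prkag1 were closer than their SDs, and the other neighbours in that order were further apart than either SD. In the fasted livers Prkag1, at 12.7 ± 1.3, stood above Prkaa2, at 10.9 ± 1.66 CPM per kb (SD, n = 36).

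**Figure D1:**
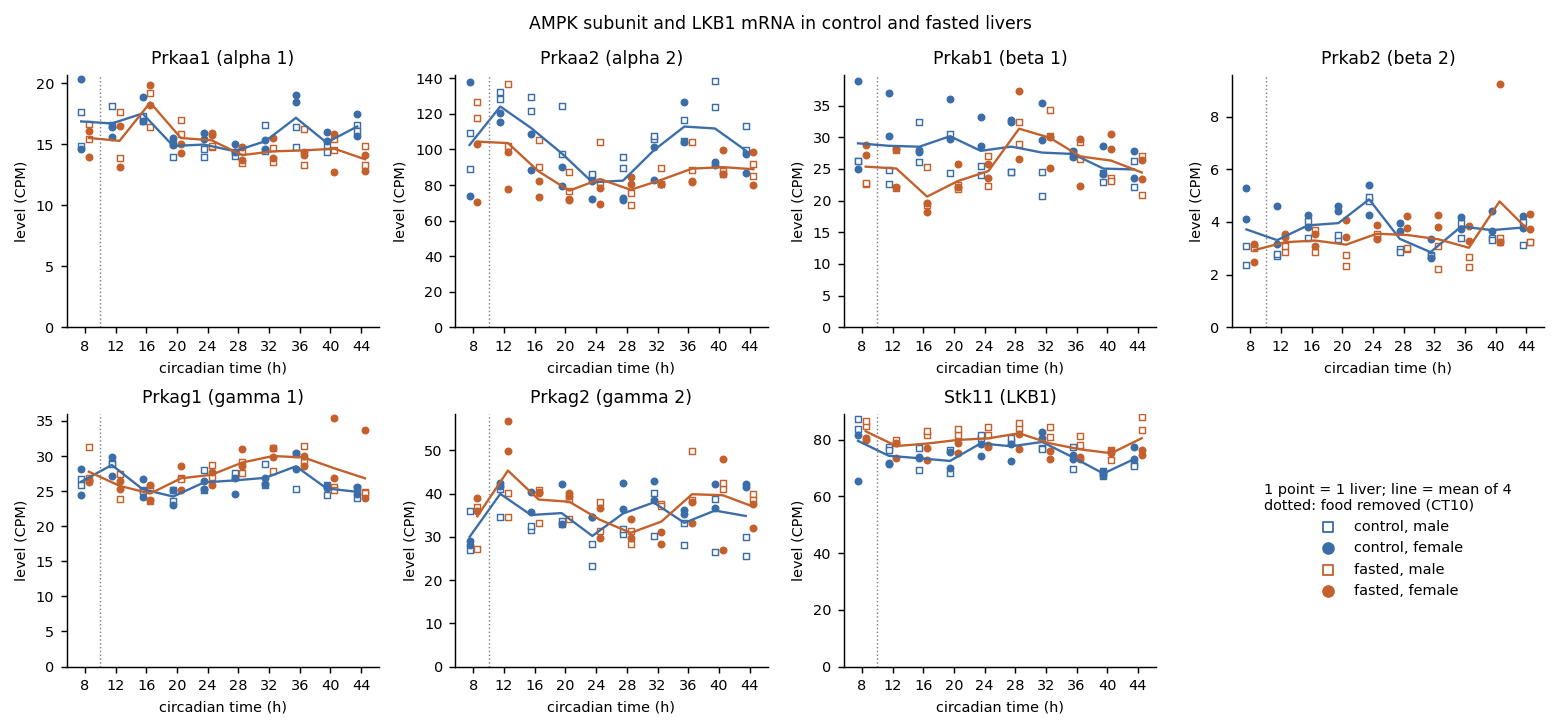
Level (CPM) of each gene against circadian time, 1 point for each liver, with lines through the means of 4. Prkaa2 has a daily wave in the control livers, with a fitted log2 range of 0.56 over CT8 to CT44. The fasted fit, over CT12 to CT44 with a linear drift, gave 0.25. The test of the difference between the rhythms did not pass (adjusted p = 0.099, edgeR). Prkab1 dips at CT16 under fasting, and single fasted livers at CT40 and CT44 stand high for Prkab2 and Prkag1.

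Averaged over CT12 to CT44, 5 of the 7 genes changed with fasting in edgeR's quasi-likelihood test, at an adjusted p under 0.05, where 62.5% of all tested genes did. Prkaa1, Prkaa2 and Prkab1 fell, as did 32.9% of all genes, and Prkag1 and Stk11 rose, as did 29.5%. The shares of members called were thus near those of all genes. At CT8, before food was removed, the log2 differences between the same groups were -0.13 ± 0.086 for Prkaa1, 0.0045 ± 0.12 for Prkaa2, -0.20 ± 0.12 for Prkab1, -0.29 ± 0.17 for Prkab2, 0.07 ± 0.077 for Prkag1, 0.21 ± 0.13 for Prkag2 and 0.06 ± 0.051 for Stk11 (SE). None passed the test. For every member except Prkaa2 the difference before the fast had the sign of the mean fasting effect. For every member except Prkaa2 and Stk11 it was larger in size than that mean. The control CT8 group held female 2, which stood apart, and these differences include that library. The sexes were not always alike at CT8. Mean Prkab2 was 4.70 CPM in control and 2.82 CPM in fasted females, but 2.73 and 3.02 CPM in males (n = 2 each). Mean Prkab1 was lower in the fasted group in both sexes, at 31.9 and 27.98 CPM in females and 26.2 and 22.7 CPM in males. With each replicate number of each sex left out in turn, 2 to 6 members were called. Over the 9 times jointly, 6 of the 7 were called by the same test, where 61.7% of all genes were. The changes were small, since the median absolute log2 change over all genes was 0.27 and that of every member was below it.

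Prkaa2, the catalytic subunit with the higher level, had a log2 change of -0.23 ± 0.042 (SE, edgeR's quasi-likelihood test, adjusted p = 4.3e-06), or 0.852 of the control level. It was below control at 8 of the 9 times after food removal. At CT16, after 6 h without food, the male controls had 122 and 129 CPM and the female controls 88.6 and 109 CPM, against 90.1 and 105 CPM in fasted males and 82.3 and 73.1 CPM in fasted females. Each fasted pair was lower than the control pair of its sex, although the groups of 4 overlapped. At CT36 the controls had 105, 116, 104 and 127 CPM and the fasted livers 104, 88.7, 82.2 and 81.6 CPM, so that only the highest fasted liver reached the lowest control. The change was called at CT16 (log2 -0.35), CT20 (log2 -0.34) and CT36 (log2 -0.34). At CT24 and CT28, the trough of the control wave, fasted and control means were close, with log2 differences of 0.02 ± 0.12 and -0.09 ± 0.12 (SE).

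Prkaa1, the other catalytic subunit and the less abundant in these livers, had a smaller mean change of -0.07 ± 0.029 (SE, edgeR's quasi-likelihood test, adjusted p = 0.035). The change was -0.11 ± 0.041 in females and -0.03 ± 0.041 in males (SE). Over 14 alternative runs it lay between -0.12 and -0.03, and the call was not kept in all of them. Its calls were at CT36 and CT44. At CT44, after 34 h without food, the controls had 16.6, 16.1, 17.5 and 15.7 CPM and the fasted livers 14.8, 13.3, 12.8 and 14.1 CPM, and the groups did not overlap, as for 30.1% of all genes at that time. It was also called at CT36 (log2 -0.24 ± 0.086, SE), where the female controls stood highest at 18.4 and 19.0 CPM. Its log2 differences were -0.13 at CT12 and 0.07, 0.06 and 0.03 at CT16, CT20 and CT24, and none passed the test. The mean of the late times (CT36 to CT44) minus that of the early times (CT12 to CT20) was -0.18 ± 0.071 (SE, edgeR's quasi-likelihood test, adjusted p = 0.056), and -0.20 with adjusted p = 0.025 without the 3 libraries that stood apart.

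The share of the catalytic mRNA held by Prkaa1, per exon length, was 21.3% ± 2.9 in control and 23.2% ± 2.9 in fasted livers at CT12 to CT44 (SD, n = 36 each). The log2 ratio of Prkaa1 to Prkaa2 was higher under fasting by 0.16 ± 0.060 (SE over 18 combinations of time and sex, higher in 13 of 18, permutation test with 100000 sign changes, two-sided, p = 0.016, adjusted over 3 ratios p = 0.048). That adjusted p lay between 0.014 and 0.30 when each replicate number of each sex was left out in turn. Without male replicate 1 it was 0.15, without female replicate 2 it was 0.30, and without the 3 libraries that stood apart it was 0.025.

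Of the beta subunits, which hold the trimer together and carry the glycogen-binding domain, Prkab1 was called lower at CT16 and CT20. At CT16 its controls had 32.3, 26.1, 27.9 and 27.7 CPM and its fasted livers 25.4, 19.3, 19.7 and 18.1 CPM. The groups did not overlap, as for 18.9% of all genes at CT16, and the log2 change was -0.47 ± 0.12 (SE, edgeR's quasi-likelihood test, adjusted p = 0.0031). It was -0.38 ± 0.12 at CT20 (edgeR's quasi-likelihood test, adjusted p = 0.011), where 1 fasted liver at 25.8 CPM lay above the lowest control at 24.4 CPM. By CT28 the fasted livers had 32.5, 29.0, 37.4 and 26.6 CPM against 24.5, 24.5, 32.7 and 32.5 CPM in controls, a log2 difference of 0.15 ± 0.12 (SE) that did not pass. Prkab1 was the only member whose late fasting effect differed from its early one at an adjusted p under 0.05 in the full set of libraries, by 0.35 ± 0.099 (SE, edgeR's quasi-likelihood test, adjusted p = 0.0094), as 21.2% of all genes did. Over 13 alternative runs this difference lay between 0.20 and 0.50, and its call was lost in 4. The mean change of Prkab1 over the 9 times was -0.10 ± 0.040 (SE, edgeR's quasi-likelihood test, adjusted p = 0.030).

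Prkab2 was the least abundant member, at 3.72 ± 0.706 CPM in control and 3.50 ± 1.12 CPM in fasted livers (SD, n = 36 each). The larger spread under fasting came with 1 library: at CT40 the fasted males had 3.4 and 3.24 CPM, fasted female 1 had 3.22 CPM and fasted female 2, which stood apart from its group, had 9.24 CPM. Its mean change was -0.10 ± 0.057 (SE, edgeR's quasi-likelihood test, adjusted p = 0.11) with all libraries and -0.15 without the 3 libraries that stood apart, where it passed (adjusted p = 0.0027). The clearest time was CT24, the top of its control wave, with 4.79, 4.96, 4.27 and 5.41 CPM in controls and 3.44, 3.54, 3.86 and 3.36 CPM in fasted livers (log2 -0.45 ± 0.17, SE, edgeR's quasi-likelihood test, adjusted p = 0.043). The groups did not overlap there, as for 19.5% of all genes. Prkab1 held 92.4% ± 1.46 of the beta mRNA per exon length in control and 92.4% ± 2.14 in fasted livers (SD, n = 36 each), and the log2 ratio of Prkab1 to Prkab2 differed by 0.01 ± 0.077 (SE, permutation test with 100000 sign changes, two-sided, p = 0.89).

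Of the gamma subunits, which bind AMP, ADP and ATP, Prkag1 rose slightly and Prkag2 did not pass the test. Prkag1 averaged 26.3 ± 1.89 CPM in control and 27.6 ± 2.82 CPM in fasted livers (SD, n = 36 each), a log2 change of 0.07 ± 0.026 (SE, edgeR's quasi-likelihood test, adjusted p = 0.020), and was above control at 7 of 9 times. No single time was called. At CT20 the fasted livers, at 26.8, 26.7, 25.2 and 28.5 CPM, were all above the controls, at 23.6, 25.1, 23.0 and 25.1 CPM, although the lowest fasted liver (25.18 CPM) and the highest control (25.14 CPM) were nearly level. Groups did not overlap for 29.8% of all genes at CT20. Its highest values, 35.4 CPM in fasted CT40 female 2 and 33.6 CPM in fasted CT44 female 1, were in libraries that stood apart, and without the 3 such libraries the change was 0.04 (edgeR's quasi-likelihood test, adjusted p = 0.072). Prkag2 averaged 35.3 ± 5.42 CPM in control and 37.4 ± 6.52 CPM in fasted livers (SD, n = 36 each), a log2 change of 0.08 ± 0.043 (SE, edgeR's quasi-likelihood test, adjusted p = 0.091) that passed at 0.11 (adjusted p = 0.014) without those 3 libraries. The log2 ratio of Prkag1 to Prkag2 differed by -0.01 ± 0.082 (SE, permutation test with 100000 sign changes, two-sided, p = 0.87), with Prkag1 at 69.0% ± 3.56 of their mRNA per exon length in control and 68.7% ± 4.85 in fasted livers (SD, n = 36 each). Prkag3, the third gamma subunit, was near absence at 0.103 ± 0.149 CPM in control and 0.0429 ± 0.0580 CPM in fasted livers (SD, n = 36 each). The mean fasting test could not decide whether it changed, since the SE of its log2 change was 3392.

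**Figure D2:**
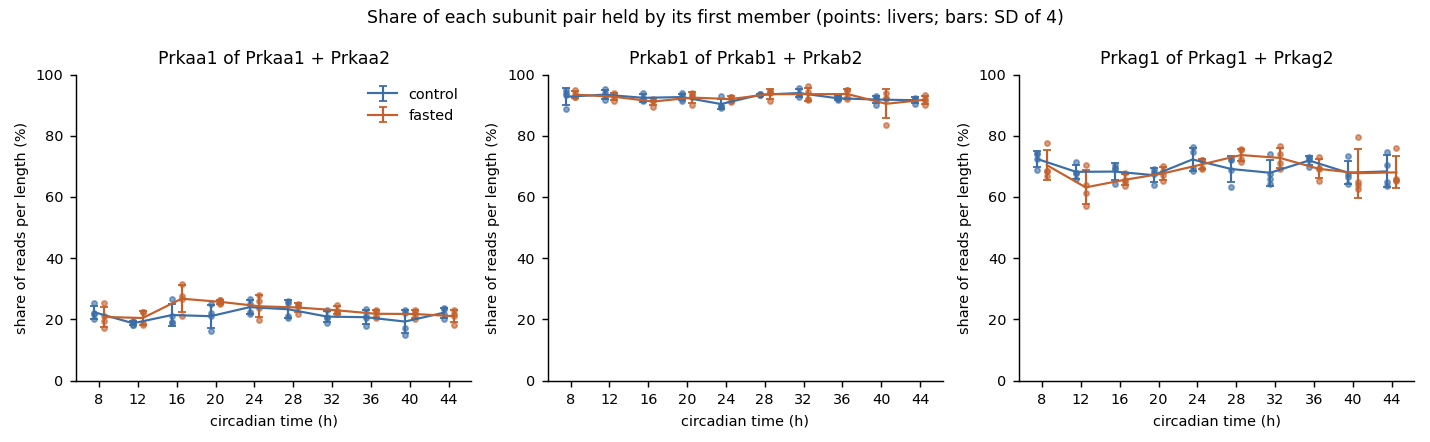
Share (%) of each subunit pair's reads per exon length held by Prkaa1, Prkab1 and Prkag1 against circadian time, points for livers and bars for the SD of 4. The Prkaa1 share is 21.3% in control and 23.2% in fasted livers on average, and the livers of the treatments overlap for all 3 shares.

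Stk11 (LKB1), the upstream kinase, had the smallest SD relative to its mean of the members. Its mean log2 change was 0.08 ± 0.017 (SE, edgeR's quasi-likelihood test, adjusted p = 4.9e-05), or 1.06 times control, and it was above control at 8 of 9 times. At CT40 the controls had 67.1, 69.1, 67.5 and 68.6 CPM and the fasted livers 76.5, 72.9, 75.4 and 76.1 CPM. The groups did not overlap, as for 26.7% of all genes at CT40. At CT44 the fasted males, at 83.3 and 88.0 CPM, were above all 4 controls (71.4, 70.7, 77.4 and 73.2 CPM), whereas the fasted females, at 76.3 and 74.5 CPM, lay among them. The change was called at CT20 (log2 0.14), CT40 (log2 0.14) and CT44 (log2 0.14), each ± 0.051 (SE). The late and early fasting effects on Stk11 differed by 0.01 ± 0.042 (SE).

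By time, the members called by edgeR's quasi-likelihood test at an adjusted p under 0.05 were set against the share of all genes called at that time. At CT8 no member and 1.33% of genes were called, and at CT12 no member and 1.60%. There were 2 members at CT16 (Prkaa2 and Prkab1, 23.4% of genes), 3 at CT20 (Prkaa2, Prkab1 and Stk11, 36.6%) and 1 at CT24 (Prkab2, 24.1%). None was called at CT28, where 21.0% of genes were, or at CT32, with 17.7%. There were 2 at CT36 (Prkaa1 and Prkaa2, 26.8%), 1 at CT40 (Stk11, 39.9%) and 2 at CT44 (Prkaa1 and Stk11, 39.4%). Of the 11 calls from CT16 to CT44, the 8 for subunits were all downward and the 3 for Stk11 all upward. Without the 3 libraries that stood apart, these 11 were called as well, and so were Prkab2 at CT20 (log2 -0.35) and CT36 (log2 -0.36), Prkaa2 at CT40 (log2 -0.34) and Prkag2 at CT40 (log2 0.32).

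**Figure D3:**
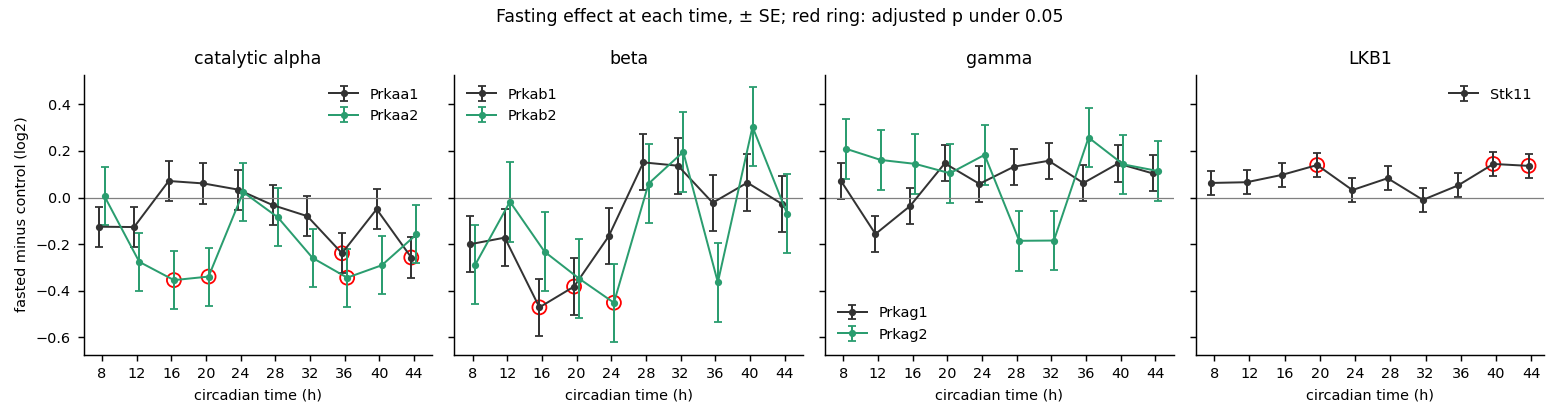
Fasted minus control (log2, ± SE) against circadian time for the alpha, beta and gamma subunits and LKB1, with red rings where the adjusted p was under 0.05. Rings lie below 0 for Prkaa1, Prkaa2, Prkab1 and Prkab2 and above 0 for Stk11, and there is none for Prkag1 or Prkag2.

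In the control livers, 5 of the 7 members had a 24 h rhythm in edgeR's quasi-likelihood test of a cosine curve, where 41.8% of all genes did. The fitted peaks of the catalytic subunits lay close together. Prkaa2 peaked at circadian time 13.5, with a peak-to-trough range of 0.56 on the log2 scale (adjusted p = 5.8e-06, edgeR). Prkaa1 peaked at 13.3, with a range of 0.21 (adjusted p = 0.018, edgeR). Prkaa2 was highest at CT12, at 128, 132, 121 and 115 CPM, and lowest at CT24, at 85.6, 86.3, 82.1 and 72.3 CPM. Its CT36 mean, 1 day after CT12, was the next highest. Prkag1 peaked at 9.45 (range 0.16) and Stk11 at 4.74 (range 0.17), both shallow waves with adjusted p = 0.0023 and 0.0021 (edgeR). Prkab2 peaked at 21.5, with a range of 0.34 (adjusted p = 0.021, edgeR). Prkab1 and Prkag2 were not called, at ranges of 0.06 and 0.17. With CT8 to CT28 alone, Prkaa1 and Prkaa2 passed and the other members did not. Over the 16 alternative runs, the Prkaa2 rhythm passed in all. Those of Prkaa1 and Prkab2 each lost their call in 6 runs, and those of Prkag1 and Stk11 in 3.

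In the fasted livers, once a straight-line drift from CT12 to CT44 was allowed for, 3 of the 7 were called, where 47.1% of all genes were. Circadian time and hours without food advanced together in these livers, so a daily rhythm and a passing response to the fast cannot be told apart. Prkab1 had the widest fitted wave, with a range of 0.45 and a peak at 6.23 (adjusted p = 0.00039, edgeR), set by the dip at CT16 and the high values at CT28. Its fasted mean was 20.6 ± 3.22 CPM at CT16 and 26.3 ± 3.58 CPM at CT40, 1 day later (SD, n = 4 each). The control means were 28.5 ± 2.68 and 25.1 ± 2.45 CPM (SD, n = 4 each). Prkag2 peaked at 14.6 (range 0.39, adjusted p = 0.0076, edgeR), with fasted CT12 livers at 34.6, 40.2, 49.7 and 56.8 CPM against 28.4, 31.4, 29.8 and 34.1 CPM at CT28. Prkag1 peaked at 6.57 (range 0.19, adjusted p = 0.029, edgeR). The Prkaa2 range was 0.25 with adjusted p = 0.055 (edgeR). A test of the difference between the rhythms called Prkab1 alone (adjusted p = 0.026, edgeR), where 23.2% of all genes were called, and Prkaa2 had adjusted p = 0.099. Without the 3 libraries that stood apart, Prkaa2 passed as well, with adjusted p = 0.044 for the difference and 0.044 for its fasted rhythm.

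Males and females differed in 4 of the 7 members in control livers, averaged over the 10 times (edgeR's quasi-likelihood test), where 39.2% of all genes did. Prkaa2 was lower in females, as were 18.6% of genes, at 94.9 ± 19.1 against 110.0 ± 16.5 CPM in males (SD, n = 20 each, log2 -0.22, adjusted p = 0.0015 in edgeR). Prkab1, Prkab2 and Prkag2 were higher in females, as were 20.6% of genes. Prkab1 had 30.2 ± 4.30 CPM in females and 25.4 ± 2.70 in males, Prkab2 4.08 ± 0.659 and 3.37 ± 0.689, and Prkag2 37.8 ± 4.57 and 31.8 ± 4.75 (SD, n = 20 each), with log2 differences of 0.25, 0.29 and 0.25. Prkaa1, Prkag1 and Stk11 did not pass, with log2 differences of 0.06 ± 0.039, -0.01 ± 0.035 and -0.03 ± 0.023 (SE).

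The fasting effect itself differed between the sexes for Prkag2 and Prkab1, where 12.4% of all genes were called. Among males, Prkag2 had a lowest, median and highest value of 23.3, 31.7 and 41.0 CPM in 18 control livers and 28.4, 38.2 and 49.8 CPM in 18 fasted livers of CT12 to CT44, and among females of 33.0, 39.4 and 42.8 CPM and 26.9, 37.1 and 56.8 CPM. Its log2 change was thus 0.24 ± 0.060 in males and -0.07 ± 0.060 in females, a difference (female minus male) of -0.31 ± 0.085 (SE, edgeR's quasi-likelihood test, adjusted p = 0.012). For Prkab1 the change was 0.02 ± 0.057 in males and -0.22 ± 0.057 in females, a difference of -0.24 ± 0.081 (SE, edgeR's quasi-likelihood test, adjusted p = 0.038). Both passed without the 3 libraries that stood apart (adjusted p = 0.032 and 0.040), and with each replicate number of each sex left out in turn 0 or 1 of the pair passed. Both genes were higher in females than in males when fed, and under fasting the means of the sexes were close, at 37.3 ± 7.96 in females and 37.5 ± 4.92 in males for Prkag2, and 25.8 ± 4.51 and 25.8 ± 4.19 for Prkab1 (SD, n = 18 each). Stk11 changed by 0.13 ± 0.024 in males and 0.04 ± 0.024 in females, and the difference of -0.09 ± 0.034 (SE) did not pass in edgeR's quasi-likelihood test (adjusted p = 0.068). Prkaa2 changed by -0.28 ± 0.059 in males and -0.18 ± 0.059 in females, with a difference of 0.10 ± 0.083 (SE).

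**Figure D4:**
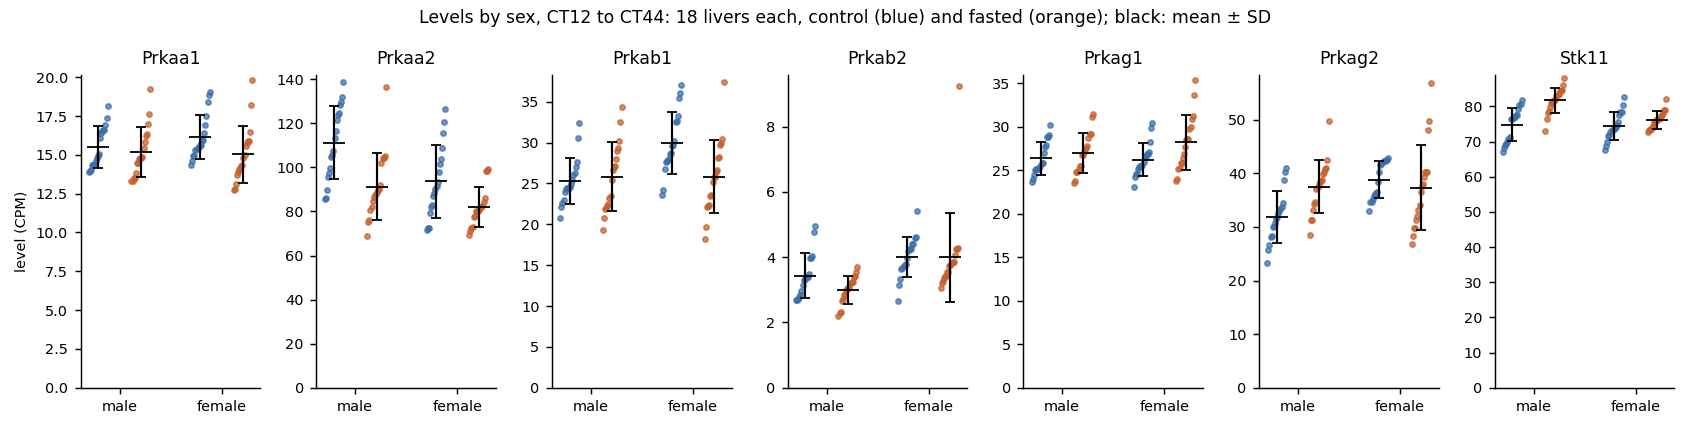
Level (CPM) of each gene by sex at CT12 to CT44, 18 livers in each column, control in blue and fasted in orange, with the mean ± SD in black. For Prkag2 and Prkab1 the control females stand above the control males, while the fasted means of the sexes lie together.

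Exon bins, the pieces into which the deposited exon table divides each gene, were compared between fasted and control livers relative to the rest of their gene. Stk11 alone among the members was called (edgeR's diffSpliceDGE, Simes' method, adjusted p = 0.00027), where 14.3% of 13889 genes were. Of its 28 bins, 26 were tested and 1 passed, bin 22, whose use relative to the gene was higher by 0.27 on the log2 scale (adjusted p = 9.4e-05 in edgeR). The table gives bins by number without coordinates, so that its place in the transcript is not stated here. The bin held 0.977% ± 0.222 of the gene's bin counts in control and 1.3% ± 0.471 in fasted livers (SD, n = 36 each), on 39 to 112 and 47 to 228 counts per library.

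By time, the share of bin 22 was higher in fasted than in control livers at 7 of 9 times. At CT28 the share was 2.15% ± 0.516 in fasted and 0.881% ± 0.300 in control livers (SD, n = 4 each), and at CT24 it was 1.48% ± 0.172 against 0.917% ± 0.208. At CT36 the means were 1.1% and 1.12%. At the level of the gene, the Stk11 call was lost without male replicate 1 (adjusted p = 0.060) and without female replicate 1 (adjusted p = 0.15), each leaving 1 library of that sex per time. The replicate libraries of fasted CT40 were taken as 1 group, because 3 exon columns matched another library of that group better than the one they are named for. Among the other members, 9 of 11 bins of Prkaa1, 9 of 9 of Prkaa2, 20 of 24 of Prkab1, 14 of 20 of Prkab2, 20 of 22 of Prkag1 and 25 of 35 of Prkag2 were tested and none passed. The smallest adjusted p among those bins was 0.19.

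**Figure D5:**
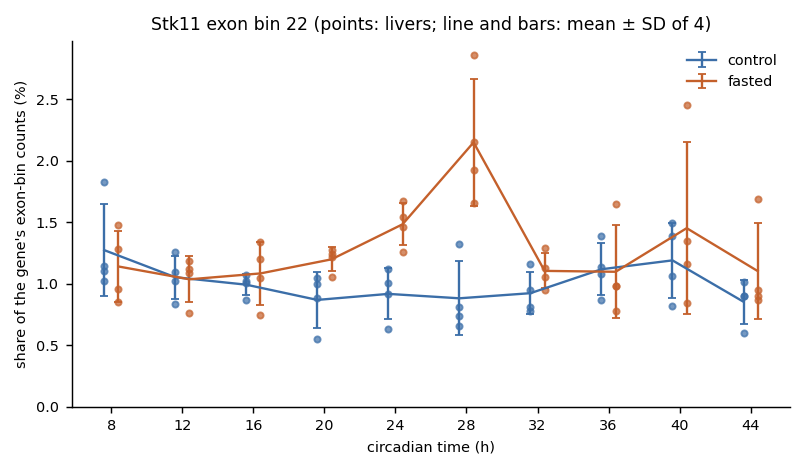
Share (%) of the Stk11 exon-bin counts that fell in bin 22 against circadian time, points for livers and lines with bars for the mean ± SD of 4. The fasted mean is 2.15% at CT28, above the control mean of 0.881%, and the treatments lie together at CT36.

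The genes with the time courses most like those of the members, by Pearson's r over the 20 means of treatment and time, are given as a description. For Prkaa2 they were Zfp809 (r = 0.90) and Ttc23 (r = 0.89), for Prkaa1 Nufip2 (0.83) and Fryl (0.82), for Prkab1 Parp2 (0.89) and Anapc4 (0.86) and for Prkab2 Pogz (0.80) and Rbsn (0.77). For Prkag1 they were Smim7 (0.92) and Qars1 (0.87), for Prkag2 Arhgef37 (0.82) and Cask (0.79) and for Stk11 Asb3 (0.90) and Ypel3 (0.88). Among the members, r was 0.51 between Prkaa1 and Prkaa2 and -0.59 between Prkaa2 and Stk11. The means share libraries and their scaling.

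Around the kinase, the genes of the same pathway were counted by the mean fasting test, in which 29.5% of all genes rose and 32.9% fell, at a median log2 change of -0.02. Of 7 LKB1 partners and other AMPK-activating kinases, 4 rose and 3 fell (median 0.05). Camkk2, the calcium-dependent kinase that activates AMPK without LKB1, fell by 0.77 on the log2 scale, from 21.2 ± 5.78 to 12.2 ± 2.75 CPM (SD, n = 36 each). Of 11 tested AMPK-related kinases, which LKB1 also activates, 6 rose and 2 fell (median 0.14), among them Sik1 (log2 0.79) and Sik3 (log2 0.61), the salt-inducible kinases that restrain CRTC coactivators. Of 6 sestrin and folliculin complex genes, 4 rose and 2 fell (median 0.29). Sesn2, a stress-induced protein that binds AMPK, rose by 1.61 and the folliculin partner Fnip1 by 0.59.

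Of 22 genes whose proteins AMPK phosphorylates, 9 rose and 7 fell (median 0.01), shares not far from the 29.5% and 32.9% of all genes. Among them were Srebf1 (log2 -3.13), a transcription factor of lipid synthesis, Txnip (log2 2.07), which limits glucose uptake, and Ppargc1a (log2 1.73), a coactivator of gluconeogenesis and mitochondrial genes. Of 6 tested adenylate kinases and AMP deaminases, which set the AMP pool that the gamma subunits read, 1 rose and 4 fell (median -0.14), led by Ampd2 (log2 -0.93) and Ak1 (log2 -0.63). The median over the 7 members was -0.07. As a check of the fast itself, the fasting hormone gene Fgf21 rose by 3.95 and Angptl4, an inhibitor of lipoprotein lipase, by 2.33 on the log2 scale.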

How the data were processed

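RNA from 80 mouse livers was measured by stranded poly(A) sequencing. The authors deposited raw read counts per gene and per exon bin, and per the labels' processing notes they used Trimmomatic, HISAT2 and DESeq2 with the build GRCm39, whose roles and versions, like the counting program, are not given in the sources used here. A deposited table of counts normalized by the authors was not used. Counts were tested in edgeR 4.0.16 (R 4.3.3) with TMM scaling, filterByExpr (minimum count 10), 1 mean per treatment, time and sex, the quasi-likelihood test and Benjamini-Hochberg adjustment over all genes tested, with a call at an adjusted p under 0.05. Rhythms were cosine and sine terms of 24 h with sex as a covariate, and for the fasted livers a linear change over time. Subunit ratios were tested by a permutation test (scipy 1.17.1) and exon bins by edgeR's diffSpliceDGE. Exon-table rows that named no gene held 8.28% to 25.9% of counts and were left out. Total counts per library, 25534901 to 59927771, bound the counting error.

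The members, gene lists and tests were chosen with earlier results of these data known. Genes beyond the members were named where they passed the mean fasting test with an absolute log2 change of at least 0.58, at most 4 per list, or were among the 2 most correlated with a member, and some genes that met this rule are not reported here. Alternatives were DESeq2 1.42.0 and its size factors, limma-voom (limma 3.58.1), no filter, a replicate block, each sex alone and each replicate left out. Replicate numbers were not used to pair samples in the main tests. Deviations of same-numbered libraries correlated over 0.1 in 5 of 20 pairs, with a median r of 0.0039 and a highest of 0.53. Scripts were tested on simulated data. Group membership came from the titles, and no replicates were alike within sampling noise (lowest chi-square per degree of freedom 14.8). Gene positions came from GENCODE M21 on GRCm38 and promoter sequences from RefSeq on GRCm38.p6.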

Additional observations from a re-analysis of the deposited data

Results flagged for a closer look

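In 12 of 140 groups of 4 livers, the highest or lowest liver lay further from the rest than Dixon's 95% limit, which chance exceeds in about 1 in 20 groups, and 10 of the 12 were high. The library fasted CT40 female 2, which stood apart from its group in its whole profile, held 3 of them: Prkaa2 at 99.5 CPM (others 86.2 to 88.1), Prkab2 at 9.24 CPM (others 3.22 to 3.4) and Prkag1 at 35.4 CPM (others 25.2 to 26.9). Fasted CT44 female 1, which also stood apart, held Prkag1 at 33.6 CPM (others 24.03 to 24.8).

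The other high livers were Prkaa2 in fasted CT32 male 2 at 89.8 CPM (others 80.4 to 80.9), Prkab1 in control CT8 female 1 at 38.9 CPM (others 24.9 to 26.2) and in fasted CT20 female 2 at 25.8 CPM (others 21.8 to 22.5). Prkab2 was high in control CT32 female 1 at 3.35 CPM (others 2.64 to 2.73), Prkag1 in fasted CT8 male 2 at 31.3 CPM (others 26.3 to 26.9) and Prkag2 in control CT20 female 2 at 42.3 CPM (others 33.0 to 33.6). The low livers were Prkag2 in fasted CT16 male 1 at 33.2 CPM (others 40.2 to 40.8) and Stk11 in fasted CT12 female 1 at 73.5 CPM (others 78.8 to 79.8).

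The fasting effect differed between the sexes, by a test of the difference itself, for Prkab1 (female minus male, log2 -0.24) and Prkag2 (log2 -0.31). For Prkab1 it also differed between late and early times (log2 0.35). Its fitted control and fasted cosine curves differed by a peak-to-trough range of 0.40 on the log2 scale.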

How the results depend on the processing

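Of the results for single members, 717 kept their direction and side of the threshold under an alternative, 146 lost and 18 gained a call, and 17 changed direction. The mean change of Prkaa2 passed in every alternative run. At an adjusted p under 0.01 in place of 0.05, members called fell from 5 to 2 for the mean effect, from 6 to 3 jointly, from 2 to 0 for the sex difference in effect, from 5 to 3 for the control rhythm, from 1 to 0 for the rhythm difference, and pairs of member and time from 11 to 1. With no filter the sex difference called 1 member and the pairs were 7. Late minus early called 2 members with limma-voom, without control CT8 female 2 and without the 3 libraries that stood apart, and 0 in males alone. The joint test called 1 in females alone. The control rhythm called 3 in males alone, 1 in females alone and 2 over CT8 to CT28. The rhythm difference called 2 without the 3 libraries and without CT12. The cause was not tested.

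Leaving out each replicate in turn, members called were 2 to 6 for the mean effect, 0 to 5 jointly, 0 to 2 for late minus early, 0 to 1 for the sex difference in effect, 2 to 4 for sex in controls, 2 to 4 for the control, 1 to 3 for the fasted and 0 to 1 for the differing rhythm, 0 to 8 for the pairs, 0 to 1 for ratios and 0 to 1 for exon usage. Direction changed in males alone for Prkab1 (mean 0.0240), Prkaa2 (late minus early -0.0419) and Prkab2 (-0.0748), in females alone for Prkag2 (mean -0.0711, late minus early -0.26) and Stk11 (late minus early -0.0027), and with a pseudocount of 10 for the Prkab1 to Prkab2 ratio (-0.0057). It also changed with a replicate left out for late minus early of Prkab2 (-0.13 to 0.39), Prkag2 (-0.0285 to 0.0842) and Stk11 (-0.0369 to 0.0506), the sex difference in effect of Prkaa1 (-0.145 to 0.0136), sex in controls of Prkag1 (-0.0174 to 0.0051) and the ratios of Prkab1 to Prkab2 (-0.0764 to 0.0976) and Prkag1 to Prkag2 (-0.0563 to 0.0305).

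Few same-numbered pairs were correlated (5 of 20 over 0.1), but the replicate numbers were more than names. At every treatment and time, male replicate 1 held more of the female marker Xist than male replicate 2. At control CT12 these were 2.05 and 0.13 CPM. Female replicate 1 likewise held more of the male marker Ddx3y than female replicate 2, at 0.384 and 0.024 CPM in fasted CT32. The cause was not tested. With a replicate block 5 members were called for the mean effect, 5 jointly and 11 pairs.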
